A study of Mus musculus with 8 samples.

Results

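The proteasome genes of mouse liver are described here, under the symbols Psma, Psmb, Psmc, Psmd, Psme, Psmf and Psmg followed by a number. A gene was a member when its Ensembl identifier mapped to a protein-coding symbol of that form on GRCm38, which gave 50 of the 52636 genes in the count tables. The rule reads gene names only. Of the 50, 49 passed the low-count filter and were tested, and Psmb11, a subunit of the thymus, did not pass, with 2 read pairs in mouse 308 and none in the other mice. The members fall into 31 constitutive subunits of the 20S core and 19S cap, 5 inducible members (Psmb8, Psmb9, Psmb10, Psme1 and Psme2), 4 other activators or inhibitors, 7 assembly chaperones, 2 tissue-restricted subunits (Psma8 and Psmb11) and Psmc3ip, a meiotic recombination factor that shares only the letters of the name.

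The samples were livers of 8 male C57BL/6J mice, 1 RNA sequencing library per mouse. At 7 weeks of age the mice received an intraperitoneal injection of AAV8, an adeno-associated virus that reaches the liver, and from 8 weeks of age all of them ate a diet rich in fat, fructose and cholesterol that causes metabolic dysfunction-associated steatohepatitis (MASH), for 24 weeks. In 4 mice (303, 311, 314 and 315) the virus carried GFP (AAV8-GFP), and in 4 mice (308, 309, 316 and 319) it carried human AGXT (AAV8-AGXT), the enzyme that removes glyoxylate and so limits oxalate, in both cases behind the hepatocyte-specific TBG promoter. The counts cover mouse genes, so the human AGXT transcript was not measured here, and no chow-fed group was analysed here.

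The 20S proteasome is a barrel of stacked rings in which outer α subunits guard the gate and inner β subunits cut proteins, and the 19S cap recognizes ubiquitin, unfolds the substrate with a ring of ATPases and feeds it into the barrel. Interferon, and residence in immune cells, replaces the constitutive catalytic subunits Psmb6, Psmb7 and Psmb5 by Psmb9, Psmb10 and Psmb8, which makes the immunoproteasome, and raises Psme1 and Psme2, the subunits of the PA28 activator, so that more of the cut peptides suit presentation on MHC class I. Hepatocytes run mainly on the constitutive form, and the transcription factor Nfe2l1 raises its genes together when proteasome capacity falls short.

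Promoter sequence is shown for the inducible catalytic subunits and for the constitutive counterparts Psmb5 and Psmb6, because the comparison of these pairs carries much of what follows. Each run holds the 150 bases before the RefSeq start site on GRCm38.p6, read 5′ to 3′ on the gene's strand, with capitals for matches to the searched motifs. The positions are chr17:34198045-34198194 on the forward strand for Psmb8, chr17:34187331-34187480 on the reverse strand for Psmb9, chr8:105938393-105938542 on the reverse strand for Psmb10, chr14:54617996-54618145 on the reverse strand for Psmb5 and chr11:70525207-70525356 on the forward strand for Psmb6.
Psmb8: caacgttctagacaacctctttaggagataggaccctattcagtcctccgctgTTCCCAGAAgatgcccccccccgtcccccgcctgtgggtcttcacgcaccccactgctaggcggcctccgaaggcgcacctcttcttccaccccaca
Psmb9: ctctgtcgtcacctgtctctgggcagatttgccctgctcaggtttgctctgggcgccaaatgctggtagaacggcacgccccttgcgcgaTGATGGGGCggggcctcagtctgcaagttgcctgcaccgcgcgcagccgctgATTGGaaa
Psmb10: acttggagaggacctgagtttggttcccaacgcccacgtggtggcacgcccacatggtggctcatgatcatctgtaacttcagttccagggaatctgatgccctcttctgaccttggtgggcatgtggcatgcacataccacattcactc
Psmb5: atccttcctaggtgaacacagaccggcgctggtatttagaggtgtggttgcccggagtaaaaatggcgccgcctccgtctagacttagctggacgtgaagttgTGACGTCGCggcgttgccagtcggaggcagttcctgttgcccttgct
Psmb6: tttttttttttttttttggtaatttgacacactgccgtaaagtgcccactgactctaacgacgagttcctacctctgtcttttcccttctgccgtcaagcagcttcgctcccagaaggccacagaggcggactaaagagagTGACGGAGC

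In the sequence of Psmb8 the capitals mark TTCNNNGAA, a gamma-interferon activation site that begins at position -97, counted back from the start site. In Psmb9 they mark the core of an antioxidant response element, TGANNNNGC, at position -60 and the reverse complement of the NF-Y box CCAAT at position -8. The antioxidant response element core, which NFE2L1 and NFE2L2 read, stands at position -47 in Psmb5 and at position -9 in Psmb6, and the run of Psmb10 has no match to any of the 5 motifs. Windows from 250 bases before to 50 bases after the start site were given for 42 members and 27025 genes in all, and both strands were searched. For a member the window nearest the annotated 5′ end of the gene was used. For the share of all genes the first listed window of each gene was used. The antioxidant response element core lay in 13 of the 25 constitutive subunits with a window (52%), in 3 of the 5 inducible members (60%) and in 41.4% of all genes. GAAANNGAA, the core of the interferon-stimulated response element, lay in 12% of these constitutive subunits, in 1 of the 5 inducible members (Psme1) and in 8.57% of all genes. The gamma-interferon activation site lay in 4% of the constitutive subunits, in 1 of the 5 inducible members and in 8.47% of all genes. GGANNTTCC, a kB core, lay in 8% of the constitutive subunits, in 0 of the 5 inducible members and in 4.24% of all genes, and CCAAT lay in 40%, in 1 of 5 and in 37.9%. These shares describe letters in a short window, and a missing match says only that these letters do not stand there.

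Among the members the read pairs counted on one gene in one mouse ran from 941 to 6165 for the constitutive subunits and from 323 to 4276 for the inducible ones, and every test set the groups against the spread between mice. Library totals on genes ran from 17095433 to 28780140 read pairs, and mouse 308 had the lowest share of its tallied pairs on genes (56.3%, against 62.4% to 69.1% in the others). Levels are given as counts-per-million (CPM) scaled by the TMM factors of edgeR, and a gene was called changed at an adjusted p under 0.05 in the quasi-likelihood test of edgeR, adjusted by Benjamini and Hochberg over all 15248 genes that passed the filter. Fold changes are AAV8-AGXT over AAV8-GFP on the log2 scale. The replicates were separate mice. The liver label fitted the hepatocyte markers, since Alb, Ttr, Apoa1, Serpina1a, Cps1 and Hnf4a summed to between 43051 and 74138 CPM in every mouse.

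Nearly all constitutive proteasome subunits averaged higher in AAV8-AGXT than in AAV8-GFP livers and the inducible members averaged lower, but few single genes passed the test. Of the 31 constitutive subunits, 30 had a log2 fold change above 0, with a median of 0.36, whereas the median over all genes tested was 0.02 and 52.3% of them were above 0. In edgeR 3 of the 31 were called higher (Psmc1, Psmb7 and Psmd13) and 0 lower. All 5 inducible members had a fold change below 0, with a median of -0.25, and 0 of them were called in either direction. That median was -0.43 without mouse 319 and -0.19 without mouse 308 or mouse 309, and it was -0.49 with library totals in place of TMM factors, where the median of all genes was -0.22. Among the remaining members only the assembly chaperone Psmd9 was called, also higher, which made 4 of 49 tested members higher and 0 lower, where 2.45% of all tested genes were called higher and 1.9% lower. In whole liver, fewer cells of a type and less RNA per cell cannot be told apart.

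**Figure D1:**
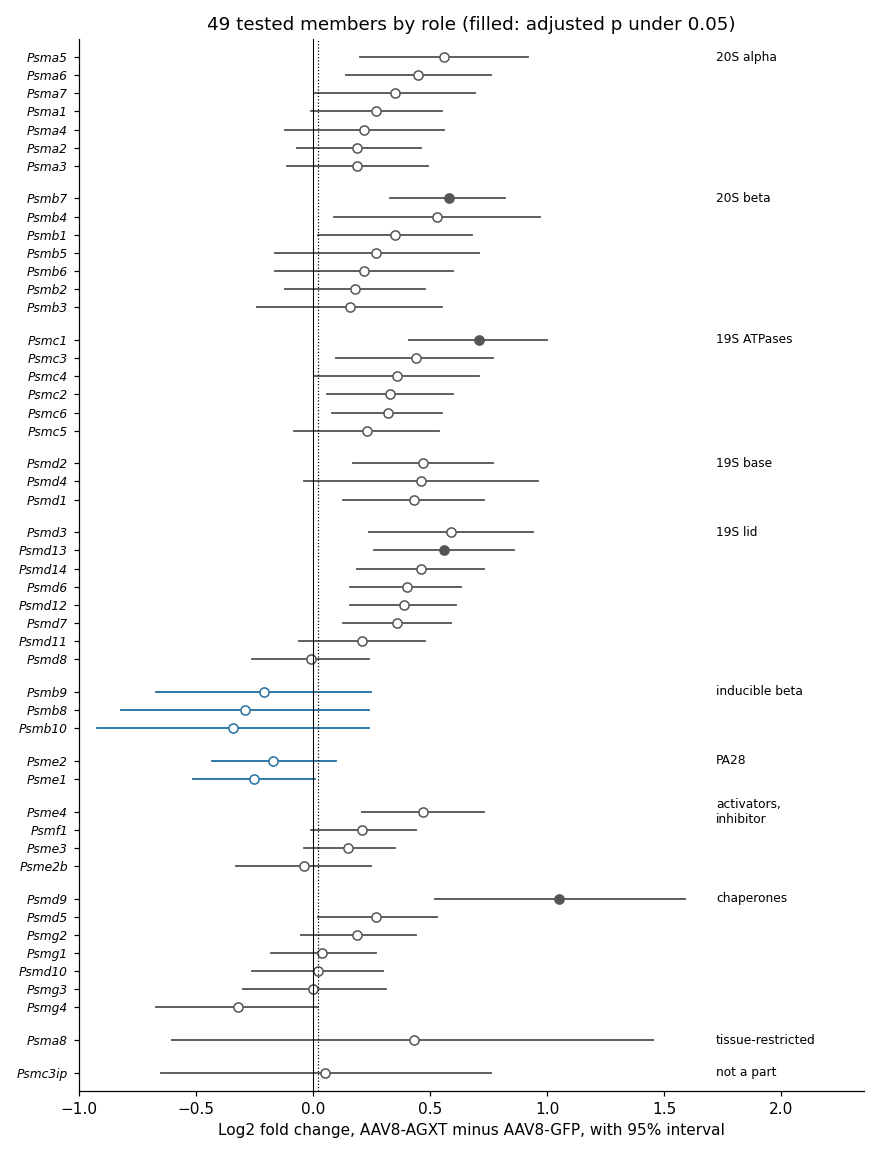
Log2 fold change (AAV8-AGXT minus AAV8-GFP) with its 95% interval for each of the 49 tested members on the horizontal axis, grouped by role on the vertical axis, with blue for the inducible members, a solid line at 0 and a dotted line at the median of all tested genes (0.02). Filled points passed the test (Psmb7, Psmc1, Psmd13 and Psmd9), 30 of the 31 constitutive subunits at the top lie right of 0, and the 5 inducible members lie left of it with intervals that include 0.

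At an unadjusted p under 0.05 in edgeR, 22 of the 49 members were higher and 0 lower, against 13.5% and 12.6% of all tested genes. The CPM of the groups did not overlap for 16 members, all higher in AAV8-AGXT, where 8.93% of all tested genes did not overlap in that direction and 7.63% in the other. The DESeq2 Wald test called 14 members higher and 0 lower, against 6.59% and 6.38% of the genes it tested, and limma-voom called 3, without Psmd13. With library totals in place of TMM factors the median of all tested genes moved by -0.24 and the constitutive median to 0.11, but the gap between the constitutive median and that of all genes was 0.33 in place of 0.34, and 30 of the 31 subunits lay above the all-gene median, although only 22 lay above 0, and Psmc1 and Psmd9 but not Psmb7 and Psmd13 were called higher. No member was called by edgeR without mouse 303, 311, 314, 308 or 319, where 2 to 193 of all genes were called. Without mouse 309, 10 members were called higher, where 643 of all genes were called in either direction.

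Psmc1 encodes Rpt2, an ATPase of the 19S base whose tail takes part in opening the gate of the 20S core (gene ENSMUSG00000021178, chromosome 12, from 100110154 to 100123405). Its level was 97.9, 94.0, 96.8 and 97.2 CPM in AAV8-GFP mice 303, 311, 314 and 315 and 190, 124, 150 and 166 CPM in AAV8-AGXT mice 308, 309, 316 and 319. Every AAV8-AGXT mouse lay above every AAV8-GFP mouse, and the AAV8-GFP values lay close together. The log2 fold change was 0.71 ± 0.13 (SE, n = 4 per group), a ratio of 1.63, with an adjusted p of 0.0336 in edgeR.

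Psmb7 encodes β2, the constitutive subunit with trypsin-like activity (ENSMUSG00000026750, chromosome 2, from 38588036 to 38644087). Its level was 39.2, 37.0, 43.4 and 49.0 CPM in mice 303, 311, 314 and 315 and 66.5, 64.9, 56.7 and 63.5 CPM in mice 308, 309, 316 and 319. The groups did not overlap, and mouse 309, the lowest AAV8-AGXT mouse for most constitutive subunits, was here near the highest. The log2 fold change was 0.58 ± 0.11 (SE, n = 4 per group), a ratio of 1.49, with an adjusted p of 0.0341 in edgeR. Exons of Psmb7 share 405 bases with Nek6 on the opposite strand, and whether the counting used strand was not stated.

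Psmd13, a subunit of the 19S lid that encodes Rpn9 (ENSMUSG00000025487, chromosome 7, from 140881968 to 140898643), stood at 64.2, 59.1, 73.2 and 67.7 CPM in AAV8-GFP mice and at 114, 76.9, 92.2 and 106 CPM in AAV8-AGXT mice, in the same order of animals. The groups did not overlap, though mouse 309 lay close to the highest AAV8-GFP mouse. Its log2 fold change was 0.56 ± 0.13 (SE, n = 4 per group), with an adjusted p of 0.049 in edgeR, just inside the threshold. Its exons share 342 bases with Sirt3 on the opposite strand.

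Psmd9 encodes p27, a chaperone that helps assemble the ATPase ring and leaves before the cap is finished (ENSMUSG00000029440, chromosome 5, from 123169413 to 123250131). It stood at 48.1, 39.9, 41.5 and 46.4 CPM in AAV8-GFP mice and at 142, 54.9, 81.8 and 86.5 CPM in AAV8-AGXT mice. All 4 AAV8-AGXT mice were above the AAV8-GFP range, and mouse 308 was far above the others. The log2 fold change of 1.05 ± 0.24 (SE, n = 4 per group) was the largest among the 49 tested members and had an adjusted p of 0.0446 in edgeR, and without mouse 308 it was 0.75 (adjusted p = 0.059). The annotated exons of Psmd9 share 1849 of 7248 bases with Gm26745 on the opposite strand. If strand was not used, pairs on the shared bases could not be assigned to either gene. Ambiguous pairs (5.02% to 6.36% of tallies) were left out of the gene counts.

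All 7 α subunits, which form the gated outer ring, had fold changes above 0, from 0.19 (Psma3, adjusted p = 0.399 in edgeR) to 0.56 (Psma5, adjusted p = 0.0753 in edgeR), and none was called. Psma5, which encodes α5, stood at 59.8, 54.1, 57.8 and 58.0 CPM in AAV8-GFP mice and at 113, 62.6, 74.5 and 88.5 CPM in AAV8-AGXT mice, without overlap. Psma3, which encodes α7, overlapped, with 108 to 123 CPM against 111 to 166 CPM. Among the 7 constitutive β subunits the fold changes ran from 0.16 (Psmb3, which encodes the non-catalytic β3, adjusted p = 0.612 in edgeR) to the 0.58 of Psmb7, which alone was called.

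All 6 ATPases of the 19S base had fold changes above 0, from 0.23 in Psmc5 (adjusted p = 0.323 in edgeR) to the 0.71 of Psmc1. In edgeR 5 of the 6 were higher at an unadjusted p under 0.05, against 13.5% of all tested genes. Psmc5, which encodes Rpt6, ranged over 96.2 to 112 CPM in AAV8-GFP and over 95.3 to 149 CPM in AAV8-AGXT mice. The scaffold subunits Psmd1 (Rpn2) and Psmd2 (Rpn1) and the ubiquitin receptor Psmd4 (Rpn10) had fold changes between 0.43 and 0.47, and none was called. Psmd2, the highest of the 3, stood at 155 to 181 CPM in AAV8-GFP and at 191 to 274 CPM in AAV8-AGXT mice, without overlap (adjusted p = 0.074 in edgeR and 0.0133 in DESeq2). Psmd1, the lowest, did not overlap either, with 56.6 to 72.4 against 73.0 to 104 CPM.

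The 19S lid, which removes ubiquitin chains through Psmd14, held the widest range of fold changes among the constitutive parts. Psmd3, which encodes Rpn3, stood at 104 to 122 CPM in AAV8-GFP and at 130 to 214 CPM in AAV8-AGXT mice (log2 fold change 0.59 ± 0.16, SE, n = 4 per group, adjusted p = 0.0647 in edgeR and 0.00985 in DESeq2). Psmd8, which encodes Rpn12, stood at 189 to 224 CPM and at 185 to 231 CPM, with a log2 fold change of -0.01 and a 95% interval from -0.26 to 0.24. It was the only constitutive subunit with a fold change below 0. For 6 of the 8 lid genes the groups did not overlap, all higher in AAV8-AGXT, against 8.93% of all tested genes. DESeq2 called 6 of the 8 higher, against 6.59% of all genes, where edgeR called only Psmd13.

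Outside the 20S core and its cap the members did not share a direction. Psme4, which encodes the activator PA200, stood at 60.6 to 78.4 CPM in AAV8-GFP and at 87.8 to 101 CPM in AAV8-AGXT mice, without overlap (log2 fold change 0.47 ± 0.12, SE, n = 4 per group, adjusted p = 0.0532 in edgeR and 0.00683 in DESeq2). Psme2b, a close copy of Psme2, had the lowest value of the 4 other activators or inhibitors, -0.04 ± 0.13 (SE), and pairs that align to both copies were left uncounted. Psmg4, an assembly chaperone of the α ring, had the lowest value of the chaperones, -0.32 ± 0.15 (SE, adjusted p = 0.217 in edgeR), with 10.7 to 13.6 CPM against 7.75 to 11.6 CPM. The 7 chaperones had a median of 0.04, close to that of all genes, in spite of Psmd9. Psma8, a subunit of the testis, was scarce at 0.586 to 0.949 and 0.481 to 2.11 CPM, and Psmc3ip at 0.617 to 1.15 and 0.621 to 1.18 CPM.

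Single mice differed in how far the proteasome genes departed from the AAV8-GFP mean. The median over the 31 constitutive subunits of log2 of the CPM over the AAV8-GFP mean was 0.61 in mouse 308, 0.42 in mouse 319, 0.26 in mouse 316 and 0.06 in mouse 309, and it lay between -0.07 and 0.11 in the AAV8-GFP mice. On this median mouse 308 was thus highest and mouse 309 was within the AAV8-GFP range. The library of mouse 308 also stood apart, with 6.05% of its tallied pairs not aligned (1.32% to 4.55% in the others), the highest share of too low alignment quality and the lowest TMM factor (0.8305 against 0.886 to 1.137), and the part of these in its levels was not tested. Mouse 308 held the highest value of all 8 mice for 28 of the 31, and mouse 309 the lowest value of its group for 26. Mouse 309 was furthest above the AAV8-GFP mean for Psmd1, by 0.68. For 14 of the 31 subunits the groups did not overlap, so there mouse 309 too lay above every AAV8-GFP mouse. The SD of log2 CPM was larger in AAV8-AGXT for 28 of the 31, and the median coefficient of variation over the subunits was 7.18% in AAV8-GFP and 18.4% in AAV8-AGXT mice. Without mouse 308 the constitutive median fold change was 0.22, with 29 of 31 above 0, and without mouse 309 it was 0.42, with all 31 above 0.

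**Figure D2:**
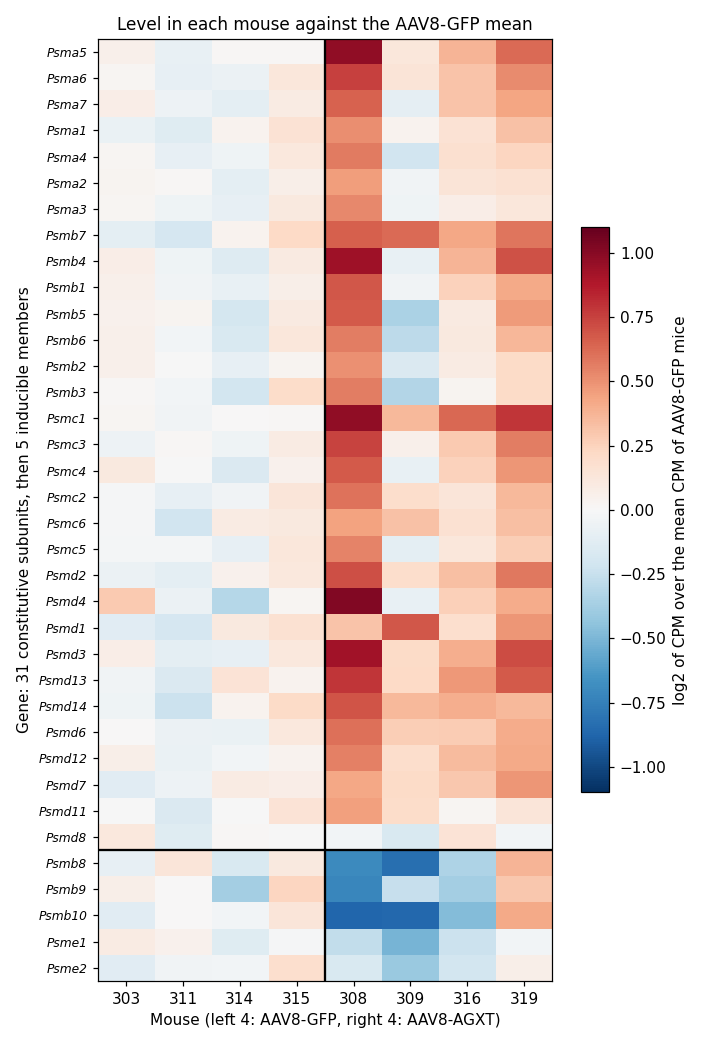
Level of the 31 constitutive subunits (above the black line) and of the 5 inducible members (below it), 1 gene per line, in the 8 mice (columns, AAV8-GFP left and AAV8-AGXT right of the line), coloured by log2 of the CPM over the mean CPM of the AAV8-GFP mice. Mouse 308 is red for 30 of the 31 constitutive subunits. Mouse 309 is mostly pale there (17 above and 14 below the AAV8-GFP mean, up to 0.68 in Psmd1). Mice 308, 309 and 316 are blue for all 5 inducible members while mouse 319 is red for 4 of them.

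The inducible catalytic subunits were mostly low in AAV8-AGXT mice 308, 309 and 316 and high in mouse 319. Psmb8, or LMP7, which takes the place of Psmb5 (ENSMUSG00000024338, chromosome 17, from 34197721 to 34201454), stood at 35.3, 41.4, 33.4 and 40.5 CPM in mice 303, 311, 314 and 315 and at 23.2, 21.2, 29.7 and 48.9 CPM in mice 308, 309, 316 and 319. Mice 308, 309 and 316 were below all AAV8-GFP mice and mouse 319 was above all of them. The log2 fold change was -0.29 ± 0.24 (SE, n = 4 per group), with a 95% interval from -0.82 to 0.24 and an adjusted p of 0.467 in edgeR. It was -0.60 without mouse 319, -0.19 without mouse 308 and -0.16 without mouse 309, and was not called in any of these. Exons of Psmb8 share 498 bases with Gm20496 on the opposite strand.

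Psmb10, or MECL-1, which takes the place of Psmb7 (ENSMUSG00000031897, chromosome 8, from 105935735 to 105938444), had the same arrangement of mice, with 37.5, 41.0, 40.1 and 44.8 CPM in AAV8-GFP and 22.3, 22.5, 29.3 and 54.6 CPM in AAV8-AGXT mice. Again 3 AAV8-AGXT mice were below the AAV8-GFP range and mouse 319 above it. Its log2 fold change was -0.34 ± 0.26 (SE, n = 4 per group), with a 95% interval from -0.92 to 0.24 and an adjusted p of 0.434 in edgeR, and without mouse 319 it was -0.72 and again not called (adjusted p = 0.0774). Without mouse 308 it was -0.21 and without mouse 309 -0.22. Psmb9, or LMP2, which takes the place of Psmb6 (ENSMUSG00000096727, chromosome 17, from 34181987 to 34187764), stood at 41.4, 39.6, 30.5 and 46.5 CPM and at 24.0, 33.2, 30.6 and 48.5 CPM. Here only mouse 308 was below the AAV8-GFP range and only mouse 319 above it. The log2 fold change was -0.21 ± 0.21 (SE, n = 4 per group), with a 95% interval from -0.67 to 0.25 and an adjusted p of 0.546 in edgeR. It was -0.43 without mouse 319, -0.34 without mouse 314, -0.12 without mouse 315 and -0.09 without mouse 308, and was not called in any of these.

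The PA28 subunits differed less between mice. Psme1, or PA28α (ENSMUSG00000022216, chromosome 14, from 55578123 to 55581529), stood at 134, 131, 116 and 125 CPM in AAV8-GFP and at 105, 89.0, 108 and 124 CPM in AAV8-AGXT mice. Mice 308, 309 and 316 were below the AAV8-GFP range and mouse 319 was within it. The log2 fold change was -0.25 ± 0.12 (SE, n = 4 per group), with a 95% interval from -0.51 to 0.01 and an adjusted p of 0.213 in edgeR. Psme2, or PA28β (ENSMUSG00000079197, chromosome 14, from 55587441 to 55591113), stood at 63.4, 67.2, 67.7 and 78.4 CPM and at 61.7, 52.2, 60.2 and 72.2 CPM, with a log2 fold change of -0.17 ± 0.12 (SE, n = 4 per group), a 95% interval from -0.43 to 0.10 and an adjusted p of 0.394 in edgeR, and it was -0.10 without mouse 315 and -0.11 without mouse 309. For Psme2 too, mice 308, 309 and 316 were below the AAV8-GFP range and mouse 319 within it. With library totals in place of TMM factors, which moved the median of all genes by -0.24, Psme1 and Psme2 passed the test as lower (adjusted p = 0.043 and 0.049 in edgeR), and under no other alternative was an inducible member called.

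**Figure D3:**
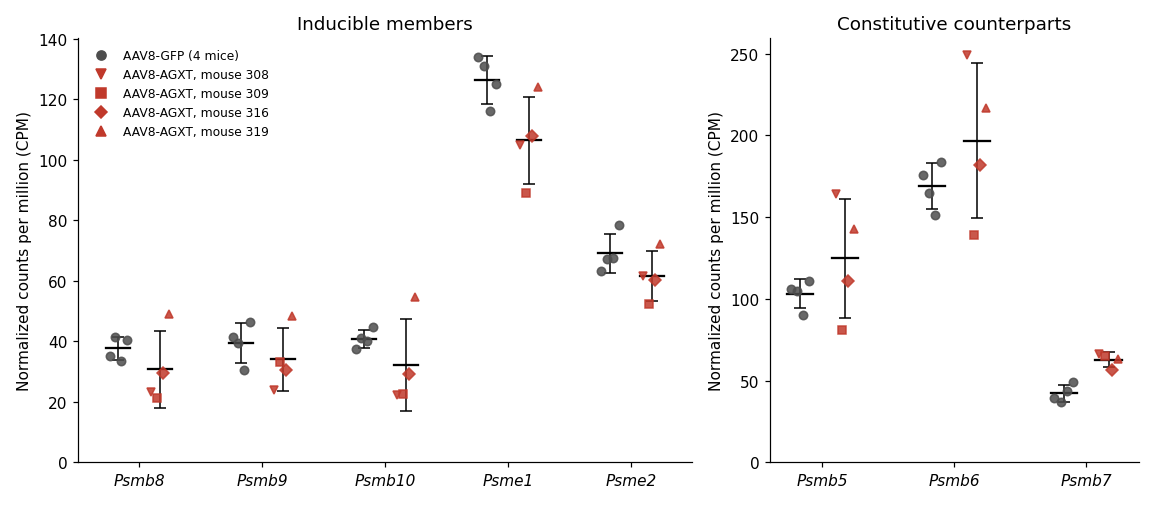
Normalized CPM of the 5 inducible members (left) and of the constitutive counterparts Psmb5, Psmb6 and Psmb7 (right), 1 symbol per mouse, grey for AAV8-GFP and red for AAV8-AGXT, with bars for the mean ± SD of 4 mice and vertical axes that start at 0. Mouse 319 is the highest AAV8-AGXT mouse for all 5 inducible members, mouse 308 is the highest for the 3 counterparts, and only Psmb7 is without overlap.

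The counterparts Psmb5 and Psmb6 were ordered differently from the inducible subunits. Psmb5, or β5, which has chymotrypsin-like activity (ENSMUSG00000022193, chromosome 14, from 54614119 to 54618022), stood at 106, 105, 90.4 and 111 CPM in AAV8-GFP and at 164, 80.9, 111 and 143 CPM in AAV8-AGXT mice. Psmb6, or β1, which has caspase-like activity (ENSMUSG00000018286, chromosome 11, from 70525367 to 70527858), stood at 176, 165, 151 and 184 CPM and at 249, 139, 182 and 217 CPM. Mouse 309 was the lowest and mouse 308 the highest of all mice for both. The log2 fold changes were 0.27 ± 0.20 (SE, n = 4 per group, adjusted p = 0.403 in edgeR) for Psmb5 and 0.22 ± 0.17 (SE, n = 4 per group, adjusted p = 0.447 in edgeR) for Psmb6. Without mouse 308 they were 0.10 and 0.07, and without mouse 309 they were 0.41 and 0.33.

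A ratio of an inducible subunit to the subunit it replaces is taken within one library and needs no normalization. Psmb10 reached 95.7, 111, 92.3 and 91.4 read pairs per 100 of Psmb7 in AAV8-GFP mice 303, 311, 314 and 315, and 33.5, 34.6, 51.7 and 86.0 in AAV8-AGXT mice 308, 309, 316 and 319. The groups did not overlap, although mouse 319 came close to the AAV8-GFP mice. Of the 2 genes, Psmb7 was called higher (log2 fold change 0.58) and Psmb10 was not called (-0.34). The mean log2 ratio was -0.04 ± 0.13 and -1.07 ± 0.63 (SD, n = 4 each), a difference of -1.03 (two-sided exact permutation test over 70 arrangements, p = 0.0286, the smallest that 4 against 4 allow, and 0.0857 with Benjamini-Hochberg adjustment over the 3 ratios).

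Psmb8 reached 33.2, 39.4, 37.0 and 36.7 read pairs per 100 of Psmb5 in AAV8-GFP and 14.1, 26.1, 26.9 and 34.2 in AAV8-AGXT mice. Mouse 319 lay inside the AAV8-GFP range and the other AAV8-AGXT mice below it. The difference of the mean log2 ratios was -0.60 (two-sided exact permutation test, p = 0.0571, adjusted 0.0857). It was -0.34 without mouse 308 and -0.76 without mouse 319 (exact permutation test, unadjusted p = 0.0286, the smallest possible). Psmb9 reached 23.6, 24.0, 20.2 and 25.2 read pairs per 100 of Psmb6 in AAV8-GFP and 9.64, 23.9, 16.8 and 22.3 in AAV8-AGXT mice, where mice 309 and 319 lay inside the AAV8-GFP range. The difference was -0.44 (two-sided exact permutation test, p = 0.2, adjusted 0.2) and -0.16 without mouse 308. After adjustment none of the 3 ratios passed 0.05.

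**Figure D4:**
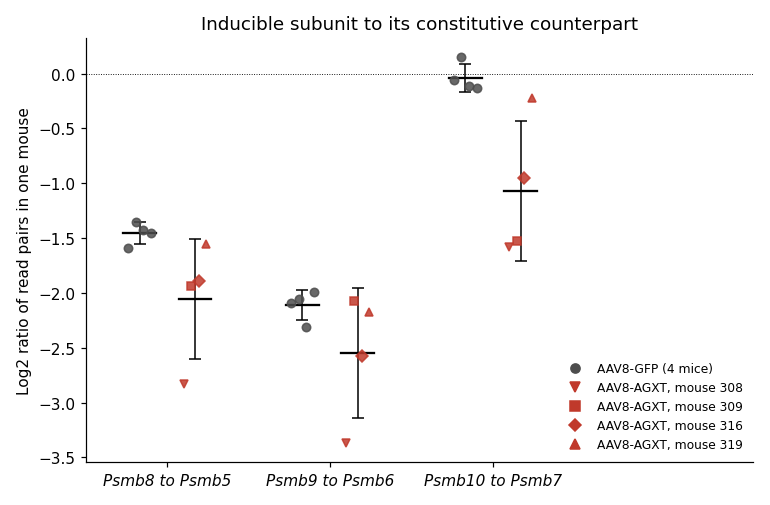
Log2 ratio of read pairs of an inducible subunit to those of its constitutive counterpart in each mouse, grey for AAV8-GFP and red for AAV8-AGXT, with bars for the mean ± SD of 4 mice and a dotted line at equal counts. Only Psmb10 to Psmb7 is without overlap (means -0.04 and -1.07), and mouse 308 has the lowest value of each ratio.

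Summed over the 3 pairs, the inducible catalytic subunits made up 35.6, 39.7, 36.6 and 38.3 read pairs per 100 of the constitutive ones in AAV8-GFP mice and 14.5, 27.0, 25.6 and 35.9 in AAV8-AGXT mice. Mouse 319 lay at the lower end of the AAV8-GFP range. Psme1 and Psme2 made up 5.78, 6.24, 5.75 and 5.73 read pairs per 100 of the 31 constitutive subunits in AAV8-GFP and 3.19, 4.12, 4.24 and 4.42 in AAV8-AGXT mice, so that this share was lower in every AAV8-AGXT mouse, mouse 319 included. In mouse 319 Psme1 and Psme2 together were at 196 CPM, within the AAV8-GFP range of 183 to 204 CPM. The 31 constitutive subunits were there at 4448 CPM, above the 3176 to 3555 CPM of the AAV8-GFP mice. The 2 summed shares were formed after the gene values were seen and are given without a test.

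Levels of different genes are compared only per length, as CPM per kilobase. With the merged exons of each gene as its length, Psmb5 was at 115 ± 9.79 and Psmb8 at 11.1 ± 1.15 CPM per kilobase in AAV8-GFP mice (SD, n = 4), Psmb6 at 90.3 ± 7.68 and Psmb9 at 10.8 ± 1.82, and Psmb7 at 12.3 ± 1.55 and Psmb10 at 24.0 ± 1.78. On this scale Psmb8 came to 9.72 per 100 of Psmb5 and Psmb9 to 11.9 per 100 of Psmb6 in AAV8-GFP mice, and to 6.74 and 9.28 in AAV8-AGXT mice, whereas Psmb10 came to 196 and 103 per 100 of Psmb7. The order of Psmb10 and Psmb7 turned with the length, because the merged exons of Psmb7 span 3421 bases and its principal transcript 1160. Per kilobase of principal transcript, Psmb7 was at 36.3 and Psmb10 at 31.2 in AAV8-GFP mice, while Psmb5 (115) stayed above Psmb8 (23.1) and Psmb6 (212) above Psmb9 (29.2). The principal transcript had no length for Psmd8 of the lid, Psmd4 of the 19S base and the chaperone Psmd10. On this length the median level of the 7 constitutive β subunits was 115 CPM per kilobase in AAV8-GFP mice. In the same mice the median was 73.2 for the α subunits and 69.2 for the ATPases. It was 41.5 for 7 of the 8 lid genes and 15.2 for 6 of the 7 assembly chaperones.

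Other genes of the pathway were taken from fixed lists. Of 12 other proteins that bind the proteasome, 0 were called by edgeR, with 4 higher and 1 lower at an unadjusted p under 0.05 (13.5% and 12.6% of all tested genes) and 1 called higher by DESeq2 (6.59% of all). Pomp, the chaperone that completes the 20S core, stood at 123 to 144 CPM in AAV8-GFP and at 123 to 194 CPM in AAV8-AGXT mice (log2 fold change 0.22 ± 0.15, SE, n = 4 per group, adjusted p = 0.371 in edgeR). Of 13 ubiquitin and shuttle genes 12 had a fold change above 0, where 52.3% of all tested genes did. Of these 13, edgeR called 2 higher and 0 lower, against 2.45% and 1.9% of all tested genes. Nploc4, a cofactor of the VCP unfoldase, stood at 66.9, 59.9, 73.8 and 64.3 CPM in AAV8-GFP and at 121, 87.9, 88.2 and 123 CPM in AAV8-AGXT mice, without overlap (log2 fold change 0.66 ± 0.14, SE, n = 4 per group, adjusted p = 0.0387 in edgeR).

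Of 10 genes that set the transcription of subunits, 0 were called by edgeR. At an unadjusted p under 0.05 in edgeR, 2 were higher and 1 lower, against 13.5% and 12.6% of all tested genes. Nfe2l1 stood at 144, 133, 165 and 147 CPM in AAV8-GFP and at 166, 200, 156 and 166 CPM in AAV8-AGXT mice, which overlapped (log2 fold change 0.22 ± 0.12, SE, n = 4 per group, adjusted p = 0.265 in edgeR). Mouse 309 was the highest for Nfe2l1 and the lowest of its group for most constitutive subunits. The part of Nfe2l1 in the subunit levels was not tested. Nfe2l2, the regulator of the oxidative stress response, stood at 111, 130, 122 and 164 CPM and at 93.3, 104, 101 and 86.5 CPM, lower in every AAV8-AGXT mouse (log2 fold change -0.45 ± 0.13, SE, adjusted p = 0.0787 in edgeR and 0.0206 in DESeq2, which called it alone of this list).

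Genes of class I peptide loading and interferon-induced genes were not called either. Of 10 genes of class I peptide loading and 16 interferon-induced genes edgeR called 0, with 1 and 4 lower and 0 higher at an unadjusted p under 0.05, and DESeq2 called 1 lower in each list, against 12.6% and 6.38% of all genes lower by these rules. The median fold changes were -0.17 and -0.20. Tap1, whose start site lies 226 bases from that of Psmb9 with the genes pointing away from each other, stood at 60.2, 60.3, 53.3 and 72.5 CPM in AAV8-GFP and at 68.1, 62.7, 62.5 and 82.2 CPM in AAV8-AGXT mice (log2 fold change 0.16 ± 0.13, SE, n = 4 per group, adjusted p = 0.449 in edgeR). Mouse 319 was the highest of all mice for both neighbours, while mouse 308 was the lowest for Psmb9 and not for Tap1. Exons of Psmb9 and Tap1 share 212 bases.

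Leukocyte markers were compared with the inducible catalytic subunits, because immune cells carry the immunoproteasome. The 34 leukocyte markers of 6 fixed lists summed to 842, 1434, 1126 and 1030 CPM in AAV8-GFP and to 349, 706, 991 and 1151 CPM in AAV8-AGXT mice 308, 309, 316 and 319. Psmb8, Psmb9 and Psmb10 together summed to 114, 122, 104 and 132 CPM and to 69.5, 76.8, 89.6 and 152 CPM, so the 4 AAV8-AGXT mice stood in the same order on both sums, and the AAV8-GFP mice did not. The leukocyte sum is mostly that of the macrophage markers, among them Cd5l at 57.2, 114, 179 and 307 CPM in the AAV8-AGXT mice. The order was not shared by every list or gene: mouse 319 was below mouse 316 on the T and NK cell (7.98 and 13.5 CPM), B cell (6.09 and 6.42 CPM) and dendritic cell sums (13.2 and 20 CPM) and for the macrophage gene Trem2 (8.82 and 24.9 CPM), and of the inducible subunits Psmb10 alone followed it. Of the 33 leukocyte markers tested 26 had a fold change below 0, with a median of -0.59, and edgeR called 0, with 9 lower at an unadjusted p under 0.05 and 8 called lower by DESeq2, against 12.6% and 6.38% of all genes. Macrophage markers summed to 648 to 1117 and 283 to 966 CPM, T and NK cell markers to 11.1 to 17.1 and 4.69 to 13.5 CPM, B cell markers to 3.75 to 9.12 and 3.73 to 6.42 CPM, neutrophil markers to 20 to 31.7 and 6.70 to 21.5 CPM and dendritic cell markers to 23.9 to 38.8 and 4.28 to 20 CPM, where only the last did not overlap. Ly6g, which defines neutrophils, was at 0 in every mouse but 319. The part of leukocytes in the levels of the inducible members was not tested.

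The 6 hepatocyte markers, most of whose sum is Alb, summed to 45653, 43051, 51361 and 51568 CPM in AAV8-GFP and to 74138, 57481, 52584 and 63485 CPM in AAV8-AGXT mice, without overlap. All 6 had a fold change above 0, where 52.3% of all tested genes did, with a median of 0.46, where that of all genes was 0.02. At an unadjusted p under 0.05 in edgeR 4 were higher, and DESeq2 called 2 higher, against 13.5% and 6.59% of all genes. By the adjusted p of edgeR only Cps1 was called (log2 fold change 0.96 ± 0.16, SE, n = 4 per group, adjusted p = 0.0279), where 2.45% of all tested genes were called higher. For 4 of the 6 the groups overlapped. The 31 constitutive subunits summed to 3418, 3176, 3188 and 3555 CPM and to 5215, 3422, 3952 and 4448 CPM. Mouse 308 was the highest and mouse 319 the next on both sums, and mouse 309 was within the AAV8-GFP range for the subunits only. Cholangiocyte markers summed to 23.5 to 62.6 CPM in AAV8-GFP and to 13.7 to 33.2 CPM in AAV8-AGXT mice (median log2 fold change -1.24, none called by edgeR and 3 of 4 lower by DESeq2), and the stellate and sinusoidal endothelial markers overlapped (244 to 349 against 172 to 373 CPM and 94.7 to 147 against 98.7 to 195 CPM). The part of the cell make-up in the levels of the constitutive subunits was not tested.

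**Figure D5:**
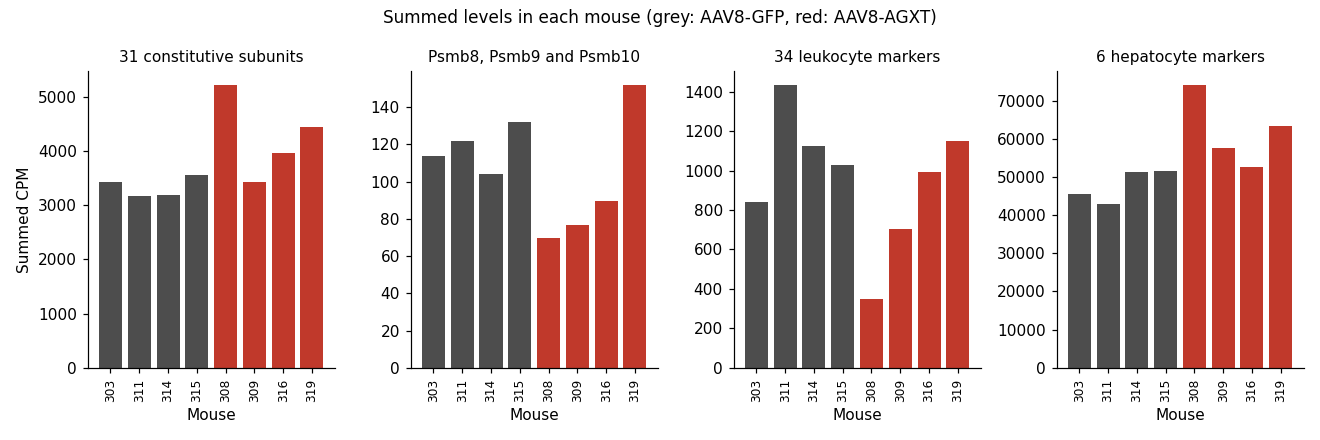
Summed CPM of the 31 constitutive subunits, of Psmb8, Psmb9 and Psmb10, of the 34 leukocyte markers and of the 6 hepatocyte markers, 1 bar per mouse, grey for AAV8-GFP and red for AAV8-AGXT, each vertical axis from 0. Within AAV8-AGXT the bars of the inducible subunits and of the leukocyte markers stand in the order 308, 309, 316, 319 from low to high, an order that the T and NK, B and dendritic cell sums did not share, and mouse 308 is highest of all mice for the constitutive subunits (5215) and the hepatocyte markers (74138).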

How the data were processed

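Liver RNA of 8 mice was sequenced as paired-end stranded mRNA libraries. The authors checked the reads (FastQC 0.11.8), trimmed low-quality ends (Trimmomatic 0.35), aligned the pairs to GRCm38 (HISAT2 2.1.0.13) and counted them on Ensembl genes (HTSeq). The deposited values are these raw counts, 1 table per mouse, unnormalized. The strand option of the counting was not given in the sources used here, and pairs aligned at several places (17.4% to 23.4% of tallies) were left uncounted. Of 52636 genes, 52489 were matched to GENCODE M21.

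Counts were tested in R 4.3.3 with edgeR 4.0.16: filterByExpr, TMM factors, a quasi-likelihood fit on treatment alone, and p-values adjusted by Benjamini and Hochberg over 15248 genes. Fold changes used a prior count of 0.125. The common biological coefficient of variation was 23.3%. The fit was tested on simulated data. Alternatives were DESeq2 1.42.0 (the authors used this test), limma-voom (limma 3.58.1), DESeq2's size factors, library totals, no low-count filter, at least 10 counts in every mouse, robust estimation and each mouse left out; principal transcript lengths were added after the data were seen. Ratios were compared by an exact permutation test over mice.

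The members and lists were chosen with earlier results of these data known. Named are the 5 inducible members and their counterparts, every called member, the highest and lowest of each role, and called pathway genes with Nfe2l1, Nfe2l2 and Pomp; 1 called pathway gene is not reported here. Tap1 was named for its position, and the markers were summed over whole lists. Promoter windows were RefSeq's on GRCm38.p6.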

Additional observations from a re-analysis of the deposited data

How the results depend on the processing

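No named gene that was called changed direction under any alternative, though with library totals 15 of the 49 members had the opposite sign, as the median of all genes moved by -0.24. The count of members called higher (4) was 14 by the DESeq2 Wald test, 2 with library totals, and 0 to 10 with each mouse left out: 0 without mouse 303, 311, 314, 308 or 319, 10 without 309 and 2 without 316. Without mouse 315 it was 4 again, with Psmd14 and Psme4 in place of Psmd13 and Psmd9, where 629 of all genes were called in either direction. Over all genes, calls in either direction numbered 2102 by DESeq2, 1001 with library totals, 643 without mouse 309 and 411 without mouse 316. They numbered 2 to 193 without mouse 303, 311, 314, 308 or 319. No member was called lower except 2 (Psme1 and Psme2) with library totals, where the median of the members other than the inducible ones was 0.08 in place of 0.32. With each mouse left out the log2 ratio of Psmb8 to Psmb5 differed by -0.76 to -0.34 and passed an unadjusted 0.05 only without mouse 319. That of Psmb10 to Psmb7 differed by -1.31 to -0.86, with exact permutation p = 0.0571 without any one of the AAV8-GFP mice and 0.0286 without any one of the AAV8-AGXT mice. These p-values were not adjusted over the ratios, and 0.0286 is the smallest that the test allows with 1 mouse left out. Per kilobase of principal transcript, an alternative chosen after seeing the data, Psmb8 came to 20.2 and 14.0 per 100 of Psmb5 in AAV8-GFP and AAV8-AGXT mice, Psmb9 to 13.7 per 100 of Psmb6 in AAV8-GFP mice, and Psmb10 to 86.3 and 45.5 per 100 of Psmb7, where the lengths alone were changed. For the other changes the cause was not tested. No paired analysis was possible because the groups share no replicate numbers. The part of depth in the number of calls was not tested.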
